A study of Arabidopsis thaliana with 13 samples.

Results

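The transcripts described here are 40 Arabidopsis thaliana genes whose products fill and protect a maturing seed. They were chosen by gene identifier from a table of 33033 genes and comprise 19 genes of storage proteins and oil bodies, 20 genes of late embryogenesis abundant (LEA) proteins, and PER1, a peroxiredoxin of seeds. The storage set holds 4 cruciferins, 4 other cupin proteins, 5 albumins (2S type), 4 oleosins and 2 further oil body proteins. The LEA set holds 2 Em proteins, 2 dehydrins, 1 seed maturation protein, 3 genes of the LEA_1 family, 10 of the LEA_4 family, and M17 and M10.

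RNA came from whole etiolated seedlings. Seeds received 6 h of white light, and seedlings then grew in darkness at 22 °C for 4 days before 4 h in liquid 1/2 MS medium. Wild-type Col-0 seedlings received 30 µM PFT-alpha (pifithrin-alpha, a compound first described as blocking p53 in animal cells), 10 µM ACC (the direct precursor of ethylene) or 1‰ DMSO as mock, and each of these groups has 3 libraries. Seedlings of etr1-1, a line with an altered ethylene receptor ETR1 that does not respond to ethylene, received DMSO mock or PFT-alpha under the same conditions, and each of these groups has 2 libraries. ACC was given to wild type alone. Every group shares the dark growth and the move to liquid medium, and the line etr1-1 carries its altered receptor in all its cells from the seed onward. The series' design text speaks of 3 biological replicates of a treatment, while each etr1-1 group is represented by 2 here and any further library was not analysed here. How the replicates were kept separate is not described, so p-values measure the spread between these libraries, which may be technical.

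Cruciferins and 2S albumins are the main storage proteins of the Arabidopsis embryo, packed into vacuoles during seed filling, while oleosins coat the oil bodies that store triacylglycerol. LEA proteins and PER1 accumulate later, as the embryo loses water, and are linked to desiccation tolerance and dormancy. The seed regulators ABI3, FUS3 and LEC2 act on storage genes through the RY element in their promoters, and the transcription factor ABI5 and its relatives bind G-box-like elements that mediate the response to abscisic acid (ABA). After germination these genes are silenced, and the stored protein and oil are used up as the seedling grows.

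Because the cores of both elements can be read in the gene promoters, the 250 bases before the annotated gene start are shown for 7 members that differ in level, family and element. Sequences are from the RefSeq genome and annotation of TAIR10.1 (the deposited values were made on TAIR10, per the submitters' processing notes, and carry no coordinates), and a window was read for 40 of the 40 members. Capitals mark the RY core, CATGCA or TGCATG on the other strand, and the ABA-response G-box core, ACGTG or CACGT on the other strand. CACGTG holds the second core on both strands, and CATGCATG holds the first on both.
The storage protein genes are represented by the cruciferin CRA1 (chr5:17758337-17758586, minus strand), the albumin SESA3 (chr4:13611546-13611795, plus strand) and the albumin SESA5 (chr5:22239188-22239437, minus strand).
CRA1: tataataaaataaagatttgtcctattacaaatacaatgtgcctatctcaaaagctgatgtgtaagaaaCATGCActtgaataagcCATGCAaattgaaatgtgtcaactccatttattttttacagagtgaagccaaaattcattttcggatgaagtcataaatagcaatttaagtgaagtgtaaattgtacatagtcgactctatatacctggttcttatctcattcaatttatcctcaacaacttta
SESA3: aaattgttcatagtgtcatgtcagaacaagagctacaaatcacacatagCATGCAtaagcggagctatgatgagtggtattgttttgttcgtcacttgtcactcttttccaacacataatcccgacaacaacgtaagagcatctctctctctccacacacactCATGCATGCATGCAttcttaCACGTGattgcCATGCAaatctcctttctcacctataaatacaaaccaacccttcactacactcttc
SESA5: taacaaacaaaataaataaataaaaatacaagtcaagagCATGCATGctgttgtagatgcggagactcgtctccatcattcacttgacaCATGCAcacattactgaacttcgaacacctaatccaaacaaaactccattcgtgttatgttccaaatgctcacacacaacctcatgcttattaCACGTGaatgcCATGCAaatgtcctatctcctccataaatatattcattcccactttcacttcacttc
The oleosin windows follow because these genes behave differently in the libraries although both windows hold both cores: OLEO1 (chr4:12900180-12900429, plus strand) and OLEO3 (chr5:20819818-20820067, plus strand).
OLEO1: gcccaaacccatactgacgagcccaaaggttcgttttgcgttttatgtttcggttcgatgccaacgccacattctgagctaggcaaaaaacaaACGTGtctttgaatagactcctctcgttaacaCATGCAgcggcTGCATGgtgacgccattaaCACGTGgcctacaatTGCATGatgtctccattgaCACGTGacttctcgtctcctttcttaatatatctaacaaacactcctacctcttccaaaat
OLEO3: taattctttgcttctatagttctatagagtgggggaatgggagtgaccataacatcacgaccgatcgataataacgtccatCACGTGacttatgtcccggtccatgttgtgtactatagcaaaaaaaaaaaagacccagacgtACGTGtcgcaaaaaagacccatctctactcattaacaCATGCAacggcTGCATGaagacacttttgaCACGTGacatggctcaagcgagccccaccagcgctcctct
The LEA genes are represented by the Em protein gene EM1 (chr3:19214472-19214721, plus strand) and by M17 (chr2:17206202-17206451, plus strand), whose window holds neither core.
EM1: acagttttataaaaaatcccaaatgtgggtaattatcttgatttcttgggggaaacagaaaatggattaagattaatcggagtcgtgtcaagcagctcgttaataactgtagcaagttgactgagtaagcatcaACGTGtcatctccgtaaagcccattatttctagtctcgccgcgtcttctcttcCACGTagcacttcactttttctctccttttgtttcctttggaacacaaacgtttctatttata
M17: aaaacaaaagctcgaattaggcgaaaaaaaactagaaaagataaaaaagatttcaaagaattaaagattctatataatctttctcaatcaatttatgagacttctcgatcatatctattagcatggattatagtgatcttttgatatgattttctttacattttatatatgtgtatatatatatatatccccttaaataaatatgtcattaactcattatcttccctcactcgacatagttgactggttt

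The RY core was found in the windows of 17 of 19 storage and oil body genes (89.5%) and of 5 of 20 LEA genes (25%), against 8.43% of 27443 protein-coding genes. The G-box core was in 13 of 19 storage windows (68.4%) and in 19 of 20 LEA windows (95.0%), against 22.9% of all. Both cores stood together in 12 storage windows (63.2%) and 5 LEA windows (25%), against 2.22% of all. PER1 has the G-box core without the RY core, CRA1 has the RY core at 2 places without the G-box core, and CRU2 and M17 have neither. SESA3 carries 7 matches to the RY core, counting both strands. A match describes these letters only, and its absence says nothing of a factor's binding.

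**Figure D1:**
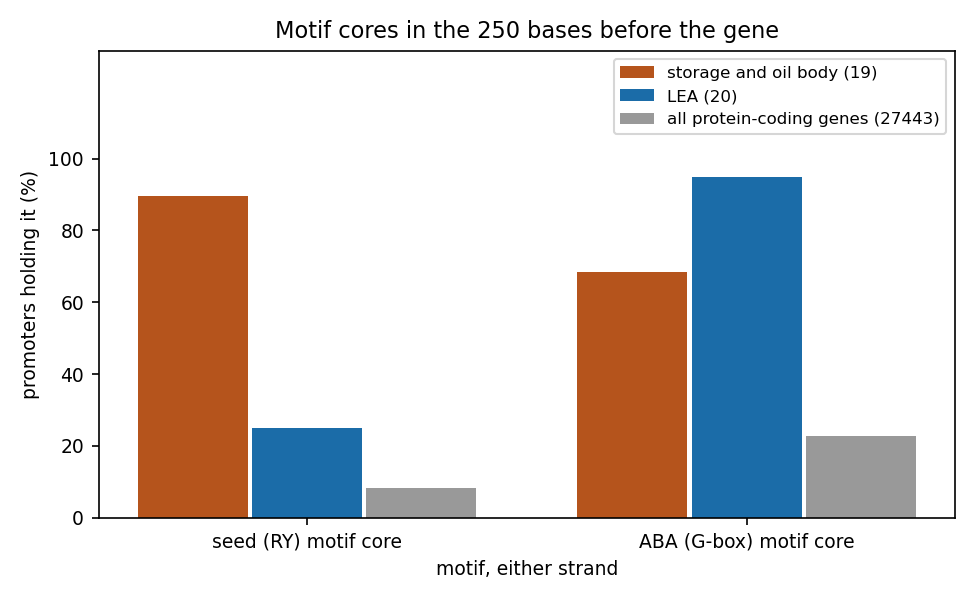
Percent of promoter windows (250 bases before the gene start, either strand, vertical axis) that hold the RY core or the G-box core, for storage and oil body genes, LEA genes and all protein-coding genes. The RY core is in 89.5% of storage and 25% of LEA windows, while the G-box core is in 68.4% and 95.0%.

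Levels are TPM, the usual unit scaled by gene length and library total, as deposited. The 13 libraries held an estimated 20.2 to 29.4 M fragments, so that 1 TPM of a transcript of 1500 bases rested on 19.8 to 29.1 fragments. Among the libraries 4 stood apart. The 3 wild-type replicate 3 libraries lay at 74.3 to 87.0 on the first principal component (44.7% of the variance), and the other 10 at -35.2 to -9.54. The library labelled etr1-1 mock 1 went against its label: ERS2, an ethylene receptor gene induced by ethylene, was at 46.9 TPM there, against 10.8 to 13.4 TPM in the other 3 etr1-1 libraries and 45.4 to 50.4 TPM in the wild-type ACC libraries. RTE1, another ethylene-responsive gene, was at 34.1 TPM in it, against 9.17 to 10.9 TPM in the other etr1-1 libraries and 30.1 to 37.9 TPM under ACC. Results that rest on these libraries are therefore also given from a reduced fit, which leaves out the library labelled etr1-1 mock 1 and adds a term for wild-type replicate 3. That fit takes from wild-type replicate 3 a shift averaged over the 3 wild-type groups. Where a group's own shift differs, its fitted level departs from that of replicates 1 and 2. For LEA transcripts the median shift in log2(TPM + 1) was -0.02 in mock, 1.14 under PFT-alpha and 1.06 under ACC. The reduced fit also leaves 1 library for etr1-1 in mock, which is assumed to vary like the others.

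All 40 members passed the filter of at least 1 TPM in at least 2 libraries, AT4G36700 alone only with the etr1-1 libraries, so seed transcripts were measurable in these seedlings. Their levels were uneven. The summed storage and oil body transcripts were at 689, 1011 and 2668 TPM in wild-type mock replicates 1 to 3, at 373, 691 and 2362 TPM under PFT-alpha, and at 404, 458 and 3430.2 TPM under ACC. In etr1-1 the sum was 509 and 5239 TPM in mock and 5749.7 and 6436 TPM under PFT-alpha. Of the 4 etr1-1 libraries 3 thus lay above every wild-type library, and the library labelled etr1-1 mock 1 lay among wild-type replicates 1 and 2.

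The LEA transcripts summed to 545, 892 and 1157 TPM in wild-type mock, 215, 364 and 1256 TPM under PFT-alpha and 518, 423 and 1282 TPM under ACC. In etr1-1 they summed to 428 and 3018 TPM in mock and 3292 and 4125 TPM under PFT-alpha. The order of the etr1-1 libraries was that of the storage transcripts. Within wild type, replicate 3 was again the highest of each group, but in mock it exceeded replicate 2 by less than for storage transcripts.

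PER1, the peroxiredoxin that marks dry and dormant seeds, was at 16.2, 23.6 and 31.3 TPM in wild-type mock, 5.62, 5.35 and 39.5 TPM under PFT-alpha, 12.4, 6.50 and 52.0 TPM under ACC, 5.55 and 91.7 TPM in etr1-1 mock, and 93.3 and 117 TPM in etr1-1 under PFT-alpha. It followed the same order, with 3 etr1-1 libraries above all wild-type libraries. Group means of the storage sum were 1456 ± 1062 TPM in wild-type mock, 1142 ± 1068 TPM under PFT-alpha, 1431 ± 1732 TPM under ACC (SD, n = 3 each), 2874 ± 3344 TPM in etr1-1 mock and 6093 ± 485 TPM in etr1-1 under PFT-alpha (SD, n = 2 each). Group means of the LEA sum were 865 ± 307, 612 ± 563 and 741 ± 471 TPM in the wild-type groups (SD, n = 3 each), 1723 ± 1831 TPM in etr1-1 mock and 3708 ± 589 TPM in etr1-1 under PFT-alpha (SD, n = 2 each). Outside etr1-1 under PFT-alpha the SD of the storage sum was thus 1062 TPM or more beside means of 1142 to 2874 TPM. In these bulk libraries fewer cells of a type and less RNA per cell cannot be told apart.

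**Figure D2:**
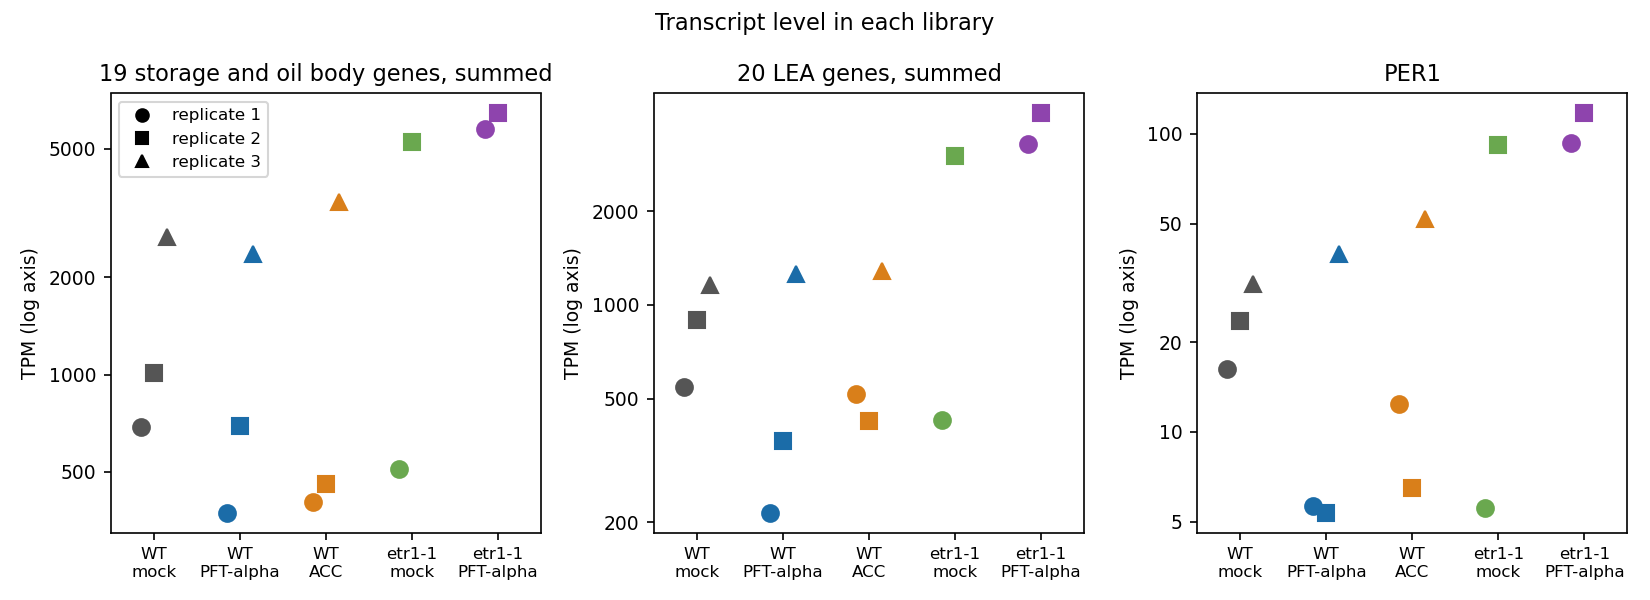
Summed TPM of the 19 storage and oil body genes, summed TPM of the 20 LEA genes, and TPM of PER1 (log axes), with 1 point per library and replicate numbers as symbols. The etr1-1 library labelled mock 1 lies among the wild-type libraries in each panel, and the other 3 etr1-1 libraries lie above all 9 wild-type libraries.

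Storage proteins made up most of the storage set. CRA1, encoding cruciferin A, had the highest mean over the 13 libraries among the members, at 211, 347 and 864 TPM in wild-type mock, 167, 411 and 689 TPM under PFT-alpha, 81.8, 204 and 1312 TPM under ACC, 183 and 2634 TPM in etr1-1 mock and 2962 and 2664 TPM in etr1-1 under PFT-alpha. CRU3, encoding cruciferin C, was at 171, 246 and 669 TPM, 77.6, 159.8 and 623 TPM and 108, 91.2 and 1038 TPM in the same wild-type groups, and at 108 and 1128 TPM and 1347 and 1302 TPM in etr1-1. For both genes the 2 etr1-1 PFT-alpha libraries exceeded all wild-type libraries, and replicate 3 was the highest wild-type library in every treatment. CRU2, the third cruciferin, was far lower at 0.40 to 26.9 TPM, and AT1G03890, its neighbour on the chromosome, reached 1 TPM only in wild-type mock replicate 3 (1.79 TPM) and PFT-alpha replicate 3 (1.1 TPM).

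The vicilin-like cupins were well below CRA1 in level. PAP85 was at 15.3, 24.0 and 43.2 TPM in wild-type mock, 12.4, 6.18 and 67.6 TPM under PFT-alpha, 4.73, 8.66 and 64.1 TPM under ACC, 10.7 and 123.1 TPM in etr1-1 mock and 141 and 177 TPM in etr1-1 under PFT-alpha. AT2G28490 was at 5.08, 8.11 and 27.6 TPM, 2.13, 2.46 and 20.3 TPM and 2.79, 2.39 and 16.8 TPM in the wild-type groups, and at 1.99 and 37.3 TPM and 35.3 and 52.8 TPM in etr1-1. Both showed replicate 3 above replicates 1 and 2 in wild type and no overlap between wild type and etr1-1 under PFT-alpha. The other cupins, AT2G18540 and AT4G36700, stayed at or below 1.78 TPM in wild type and reached 12.2 and 5.72 TPM in etr1-1.

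The albumin genes varied widely between libraries. SESA5 was at 107, 99.7 and 325 TPM in wild-type mock, 17.2, 14.4 and 394 TPM under PFT-alpha, 33.3, 34.0 and 242 TPM under ACC, 55.1 and 770.3 TPM in etr1-1 mock and 833 and 1316 TPM in etr1-1 under PFT-alpha. SESA2 was at 39.6, 64.0 and 235 TPM, 1.12, 1.16 and 134 TPM and 26.0, 3.68 and 128 TPM in the wild-type groups, and at 6.04 and 79.7 TPM and 47.7 and 221 TPM in etr1-1. SESA5 separated etr1-1 from wild type under PFT-alpha, whereas SESA2 did not, since wild-type PFT-alpha replicate 3 lay between the etr1-1 libraries. SESA4 was at 2.86, 6.82 and 21.3 TPM in wild-type mock, 0.41, 0.43 and 8.06 TPM under PFT-alpha, 0.58, 0.39 and 12.4 TPM under ACC, 1.18 and 11.5 TPM in etr1-1 mock and 5.58 and 25.1 TPM in etr1-1 under PFT-alpha. In etr1-1 under PFT-alpha, replicate 2 was above replicate 1 for SESA1 to SESA4, which lie side by side on chromosome 4. SESA1 shows it most, at 1.35 and 50.6 TPM, while its wild-type replicate 3 libraries stood at 172, 138 and 178 TPM.

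Oil body genes split. OLEO1, whose oleosin coats seed oil bodies, was at 13.7, 30.5 and 76.1 TPM in wild-type mock, 4.74, 10.96 and 71.5 TPM under PFT-alpha, 9.82, 6.14 and 89.9 TPM under ACC, 11.2 and 123.4 TPM in etr1-1 mock and 125 and 167 TPM in etr1-1 under PFT-alpha. OLEO3 was at 57.8, 71.4 and 80.9 TPM, 71.3, 71.8 and 88.2 TPM and 95.0, 86.4 and 144 TPM in the wild-type groups, and at 96.8 and 56.2 TPM and 48.5 and 57.1 TPM in etr1-1. OLEO3 was the highest oleosin in all 9 wild-type libraries, and it ran against the other oleosins in etr1-1: the library labelled mock 1 was its highest etr1-1 library, and both PFT-alpha libraries lay below all wild-type PFT-alpha libraries. ATS1, encoding a caleosin, a calcium-binding oil body protein, was at 3.55, 4.51 and 10.4 TPM in wild-type mock, 0.70, 0.58 and 6.79 TPM under PFT-alpha, 1.62, 0.81 and 9.79 TPM under ACC, 0.85 and 24.2 TPM in etr1-1 mock and 26.2 and 34.5 TPM in etr1-1 under PFT-alpha. OLEO1 and ATS1 both separated etr1-1 from wild type under PFT-alpha.

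HSD1 (AT5G50600), a steroid dehydrogenase of oil bodies, was listed at 8.0, 0 and 20.4 TPM in wild-type mock, 4.26, 0 and 26.6 TPM under PFT-alpha, 3.82, 3.19 and 32.6 TPM under ACC, 0 and 0 TPM in etr1-1 mock and 0.06 and 28.7 TPM in etr1-1 under PFT-alpha. Its values are uncertain, because every stretch of 50 bases of its transcript is also present in AT5G50700, and a listed 0 can come from how reads were divided. Summed over both copies, the level was 8.84, 11.4 and 21.1 TPM in wild-type mock, 4.26, 2.20 and 26.8 TPM under PFT-alpha, 3.82, 3.34 and 32.6 TPM under ACC, 3.68 and 69.7 TPM in etr1-1 mock and 83.5 and 108 TPM in etr1-1 under PFT-alpha. The sum of the copies thus followed OLEO1 and not the listed values of the single copy. The other 39 members, the 4 neighbouring albumin genes included, shared no stretch of that length with another gene.

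Of the LEA proteins, the Em proteins (group 1) are small hydrophilic proteins of the dry seed and known targets of ABI5 in the seed. GEA6 was at 8.65, 14.7 and 7.23 TPM in wild-type mock, 12.3, 20.6 and 44.9 TPM under PFT-alpha, 3.66, 12.7 and 50.7 TPM under ACC, 9.74 and 239 TPM in etr1-1 mock and 348 and 314 TPM in etr1-1 under PFT-alpha. EM1 was at 14.1, 19.1 and 32.9 TPM, 4.34, 11.9 and 29.2 TPM and 1.78, 9.20 and 40.03 TPM in the wild-type groups, and at 6.33 and 189.7 TPM and 173 and 213 TPM in etr1-1. In both, 3 etr1-1 libraries stood several-fold above every wild-type library.

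Dehydrins are hydrophilic proteins of water stress and late seed development. RAB18, also known as an ABA marker in vegetative tissue, was at 33.0, 51.8 and 101.2 TPM in wild-type mock, 18.5, 24.1 and 139 TPM under PFT-alpha, 44.2, 32.4 and 108 TPM under ACC, 33.5 and 297 TPM in etr1-1 mock and 278 and 363 TPM in etr1-1 under PFT-alpha. The dehydrin gene AT2G21490, listed under the symbol LEA, was at 4.58, 8.16 and 6.91 TPM, 2.65, 4.78 and 9.48 TPM and 2.59, 2.54 and 7.27 TPM in the wild-type groups, and at 2.19 and 65.8 TPM and 62.5 and 78.9 TPM in etr1-1. RAB18 resembled the storage genes in its high wild-type replicate 3, whereas AT2G21490 stayed at or below 9.48 TPM in every wild-type library. AT3G22490, annotated as a seed maturation protein, was at 0.25, 1.1 and 0.37 TPM in wild-type mock, 0.32, 0.50 and 0.72 TPM under PFT-alpha, 0.08, 0.15 and 2.89 TPM under ACC, 0.13 and 8.67 TPM in etr1-1 mock and 12.9 and 14.4 TPM in etr1-1 under PFT-alpha. Fewer than 10 estimated fragments lay behind 8 of these 13 values.

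The LEA_1 gene LEA18 was at 53.9, 78.3 and 23.1 TPM in wild-type mock, 22.7, 41.1 and 43.1 TPM under PFT-alpha, 73.0, 52.5 and 41.4 TPM under ACC, 32.8 and 178 TPM in etr1-1 mock and 181 and 214 TPM in etr1-1 under PFT-alpha. LEA4-5, a LEA_1 protein linked to tolerance of water deficit, was at 13.9, 10.9 and 8.69 TPM, 5.51, 7.81 and 5.60 TPM and 5.44, 9.99 and 5.48 TPM in the wild-type groups, and at 5.94 and 57.1 TPM and 77.3 and 71.2 TPM in etr1-1. Neither showed a raised replicate 3 in wild-type mock, where that library was the lowest of the 3.

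Among the 10 LEA_4 genes, the highest in level, AT3G02480, was at 101.0, 100.1 and 14.7 TPM in wild-type mock, 31.7, 55.0 and 22.0 TPM under PFT-alpha, 181, 129 and 14.8 TPM under ACC, 60.4 and 120.3 TPM in etr1-1 mock and 93.8 and 117 TPM in etr1-1 under PFT-alpha. LEA7 was at 19.9, 34.4 and 20.1 TPM, 10.46, 15.4 and 13.8 TPM and 61.0, 28.9 and 12.0 TPM in the wild-type groups, and at 26.1 and 65.5 TPM and 49.7 and 56.3 TPM in etr1-1. AT3G02480 was lowest in replicate 3 of each wild-type group, the reverse of the storage genes, and ACC replicates 1 and 2 exceeded every etr1-1 library. The other 8 LEA_4 genes stayed between 0.39 and 21.5 TPM in wild type and lay at 20.6 to 78.2 TPM in the 3 etr1-1 libraries other than the one labelled mock 1.

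M17, the LEA transcript with the highest mean over the 13 libraries, was at 239, 482 and 863 TPM in wild-type mock, 75.5, 137 and 864 TPM under PFT-alpha, 101, 109 and 920.2 TPM under ACC, 216 and 1401 TPM in etr1-1 mock and 1609 and 2228 TPM in etr1-1 under PFT-alpha. M10, beside it on chromosome 2, was at 14.0, 20.9 and 8.88 TPM, 15.3, 12.5 and 17.7 TPM and 8.03, 9.59 and 17.9 TPM in the wild-type groups, and at 14.8 and 24.7 TPM and 33.6 and 45.5 TPM in etr1-1. M17 had the storage genes' high replicate 3 in wild type, and M10 had a narrower range between its lowest and highest library than the other named LEA genes.

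**Figure D3:**
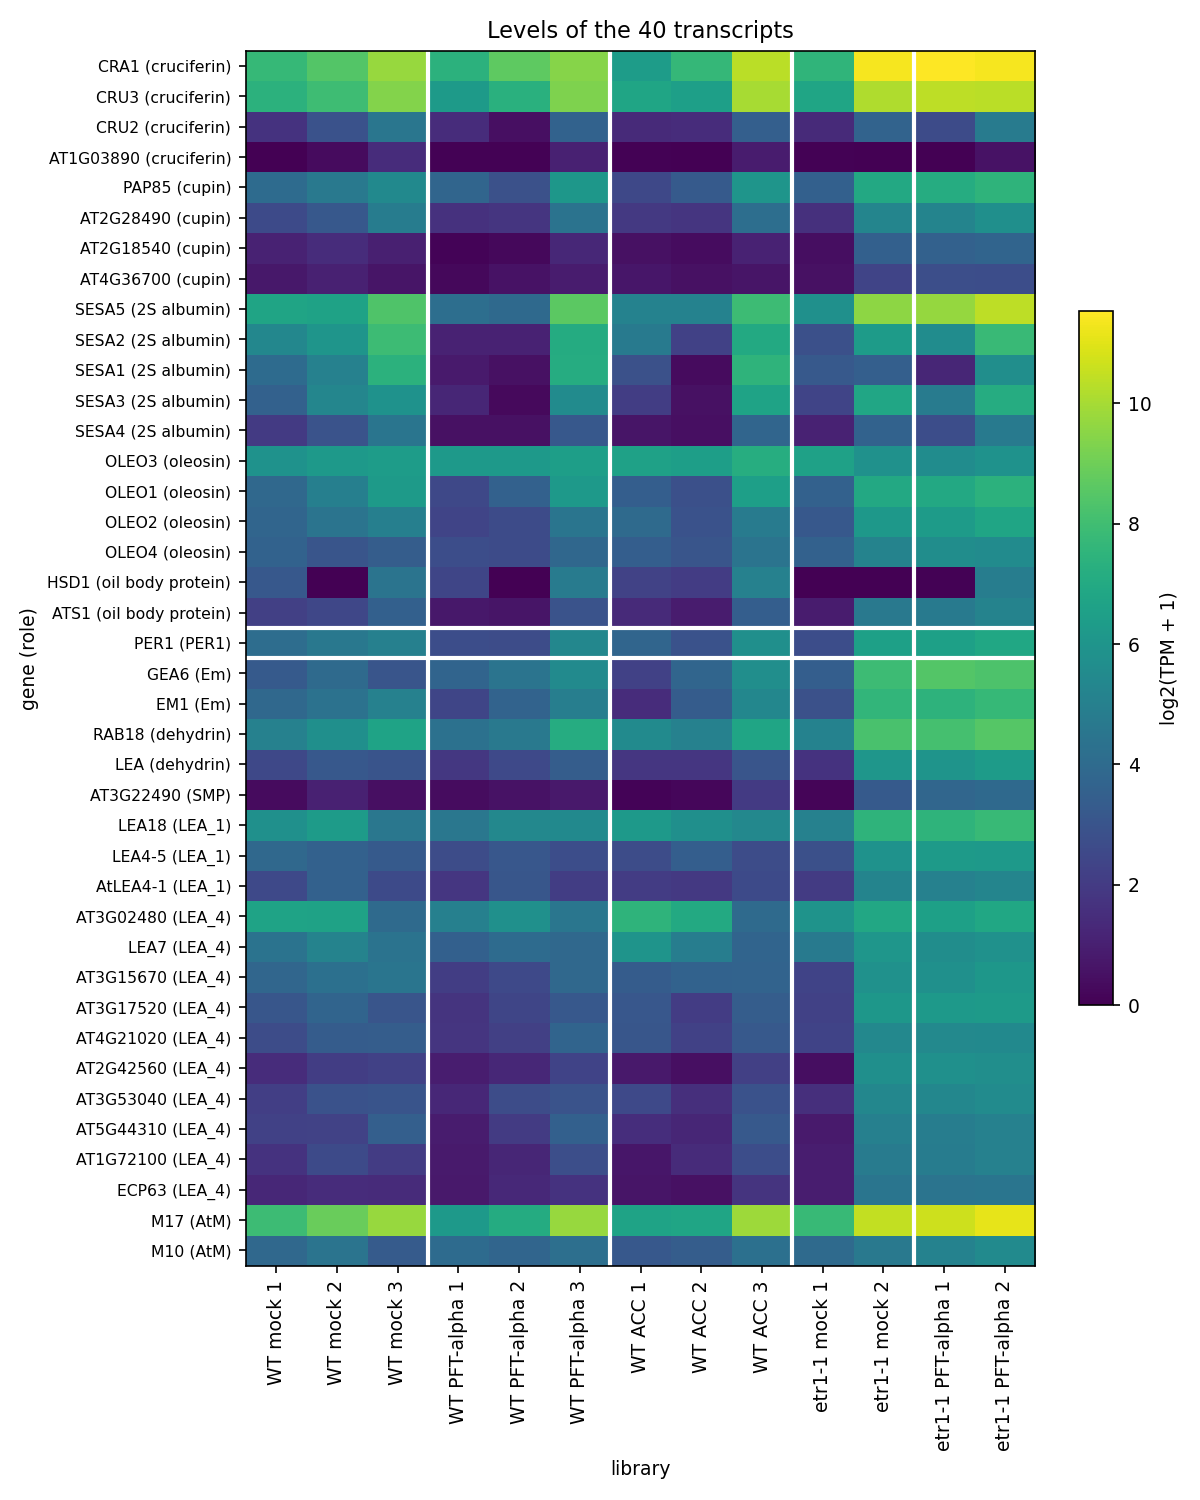
Level of each of the 40 transcripts (rows, with their role) in each of the 13 libraries (columns), as log2(TPM + 1). Wild-type replicate 3 columns are brighter for storage genes than for most LEA genes, the etr1-1 mock 2 and PFT-alpha columns are brightest for both, and OLEO3 is nearly even across all columns.

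The comparison of etr1-1 with wild type under PFT-alpha asks whether seed transcripts differ where ethylene cannot be perceived. All 20 LEA transcripts, PER1 and 11 of 19 storage transcripts were higher in both etr1-1 libraries than in each of the 3 wild-type libraries, as were 15.3% of all tested genes. Transcript OLEO3 was lower without overlap, as were 16.6% of all tested genes. The ratio of mean TPM in etr1-1 to that in wild type had a median of 8.90 over the LEA transcripts (2.60 to 26.6) and of 5.24 over the storage transcripts (0.558 to 20.6). On the log2(TPM + 1) scale, which understates changes of low genes, the median difference was 3.16 for LEA (20 of 20 above 0) and 2.85 for storage transcripts (17 of 19 above 0), against 0.01 for all tested genes.

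With all 13 libraries, limma called no member at a Benjamini-Hochberg adjusted p of 0.05, and 0.0284% of all 21091 tested genes. Unadjusted, 30 of 40 members had p under 0.05 by limma, all higher in etr1-1. The share of all tested genes at this cutoff in the same fit is not given. With single libraries left out it ran from 514 of 21025 to 1922 of 21022 tested genes, in either direction. The lowest adjusted p of a named gene was that of LEA4-5 (log2 difference 3.38, SE 0.67, adjusted p = 0.276 by limma).

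In the reduced fit 33 members rose in etr1-1 under PFT-alpha: 15 storage and oil body genes, 17 LEA genes and PER1. Among them, and in the later counts for this comparison, the cupin gene AT4G36700 passed the filter only with the etr1-1 libraries. In the same fit 2.38% of all tested genes were called higher and 3.91% in either direction. The median difference was 3.57 for storage and 3.41 for LEA transcripts, against -0.04 for all tested genes. Of the called storage genes, CRU2, SESA2, SESA3 and SESA4 overlapped wild type. They were at 11.43, 133.68, 45.65 and 8.06 TPM in wild-type PFT-alpha replicate 3. In etr1-1 PFT-alpha replicate 1 they were lower, at 5.27, 47.72, 26.97 and 5.58 TPM. For these genes the reduced fit moves wild type towards the level of replicates 1 and 2. There SESA4 rested on 3.0 and 3.1 estimated fragments under PFT-alpha, and SESA2 on 9.0 and 9.2. SESA5 rose most among the named genes, by 5.45 (SE 0.54, adjusted p = 0.000727, limma), followed by SESA2 at 4.91 (SE 1.00, adjusted p = 0.0287). CRA1 rose by 3.66 (SE 0.57, adjusted p = 0.00834) and CRU3 by 3.57 (SE 0.40, adjusted p = 0.00132). The cupin AT2G28490 gave 3.62 (SE 0.24, adjusted p = 0.000112) and PAP85 3.87 (SE 0.48, adjusted p = 0.0022), SESA4 gave 3.19 (SE 0.54, adjusted p = 0.0123), OLEO1 gave 4.02 (SE 0.47, adjusted p = 0.00172), ATS1 4.14 (SE 0.29, adjusted p = 0.000148) and PER1 3.78 (SE 0.45, adjusted p = 0.00177).

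Of the LEA genes, EM1 rose by 4.56 (SE 0.62, adjusted p = 0.00362, limma) and GEA6 by 4.20 (SE 0.71, adjusted p = 0.0125). The dehydrins RAB18 and AT2G21490 rose by 3.56 (SE 0.34, adjusted p = 0.000616) and 3.84 (SE 0.32, adjusted p = 0.000369). AT2G42560, a LEA_4 gene with 5 G-box cores in its window counting both strands, rose by 4.58 (SE 0.29, adjusted p = 9.7e-05), the largest value among LEA genes, for which it was chosen after its values were seen. AT3G22490 rose by 3.49 (SE 0.44, adjusted p = 0.00219), LEA4-5 by 3.26 (SE 0.23, adjusted p = 0.000148), LEA18 by 2.32 (SE 0.42, adjusted p = 0.0178) and M17 by 4.02 (SE 0.48, adjusted p = 0.00177).

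The 7 members not called in the reduced fit were 4 storage genes and 3 LEA genes. OLEO3 had a difference of -0.39 (SE 0.13, adjusted p = 0.153, limma), and HSD1 is uncertain for its copy. SESA1 was at 1.35 and 50.6 TPM in etr1-1 and at 0.80, 0.41 and 138 TPM in wild type. Its mean was thus lower in etr1-1 (ratio 0.558), as was that of AT1G03890 (ratio 0.612). Both rested on few fragments in several libraries, but so did SESA4 and AT3G22490, which were called. LEA7 had 1.72 (SE 0.46, adjusted p = 0.0778), AT3G02480 0.84 (SE 0.49, adjusted p = 0.417) and M10 1.36 (SE 0.38, adjusted p = 0.0862). Leaving out the wild-type replicate 3 libraries as well as the library labelled etr1-1 mock 1, an alternative chosen after the data were seen, gave 35 called members, all higher, where 2.35% of all tested genes were called higher. Without either etr1-1 mock library the estimates of this comparison stay the same, and the smaller residual spread alone gave 11 called members with the library labelled mock 1 left out and 11 with mock 2 left out, where 0.428% of all tested genes were called higher in either case.

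**Figure D4:**
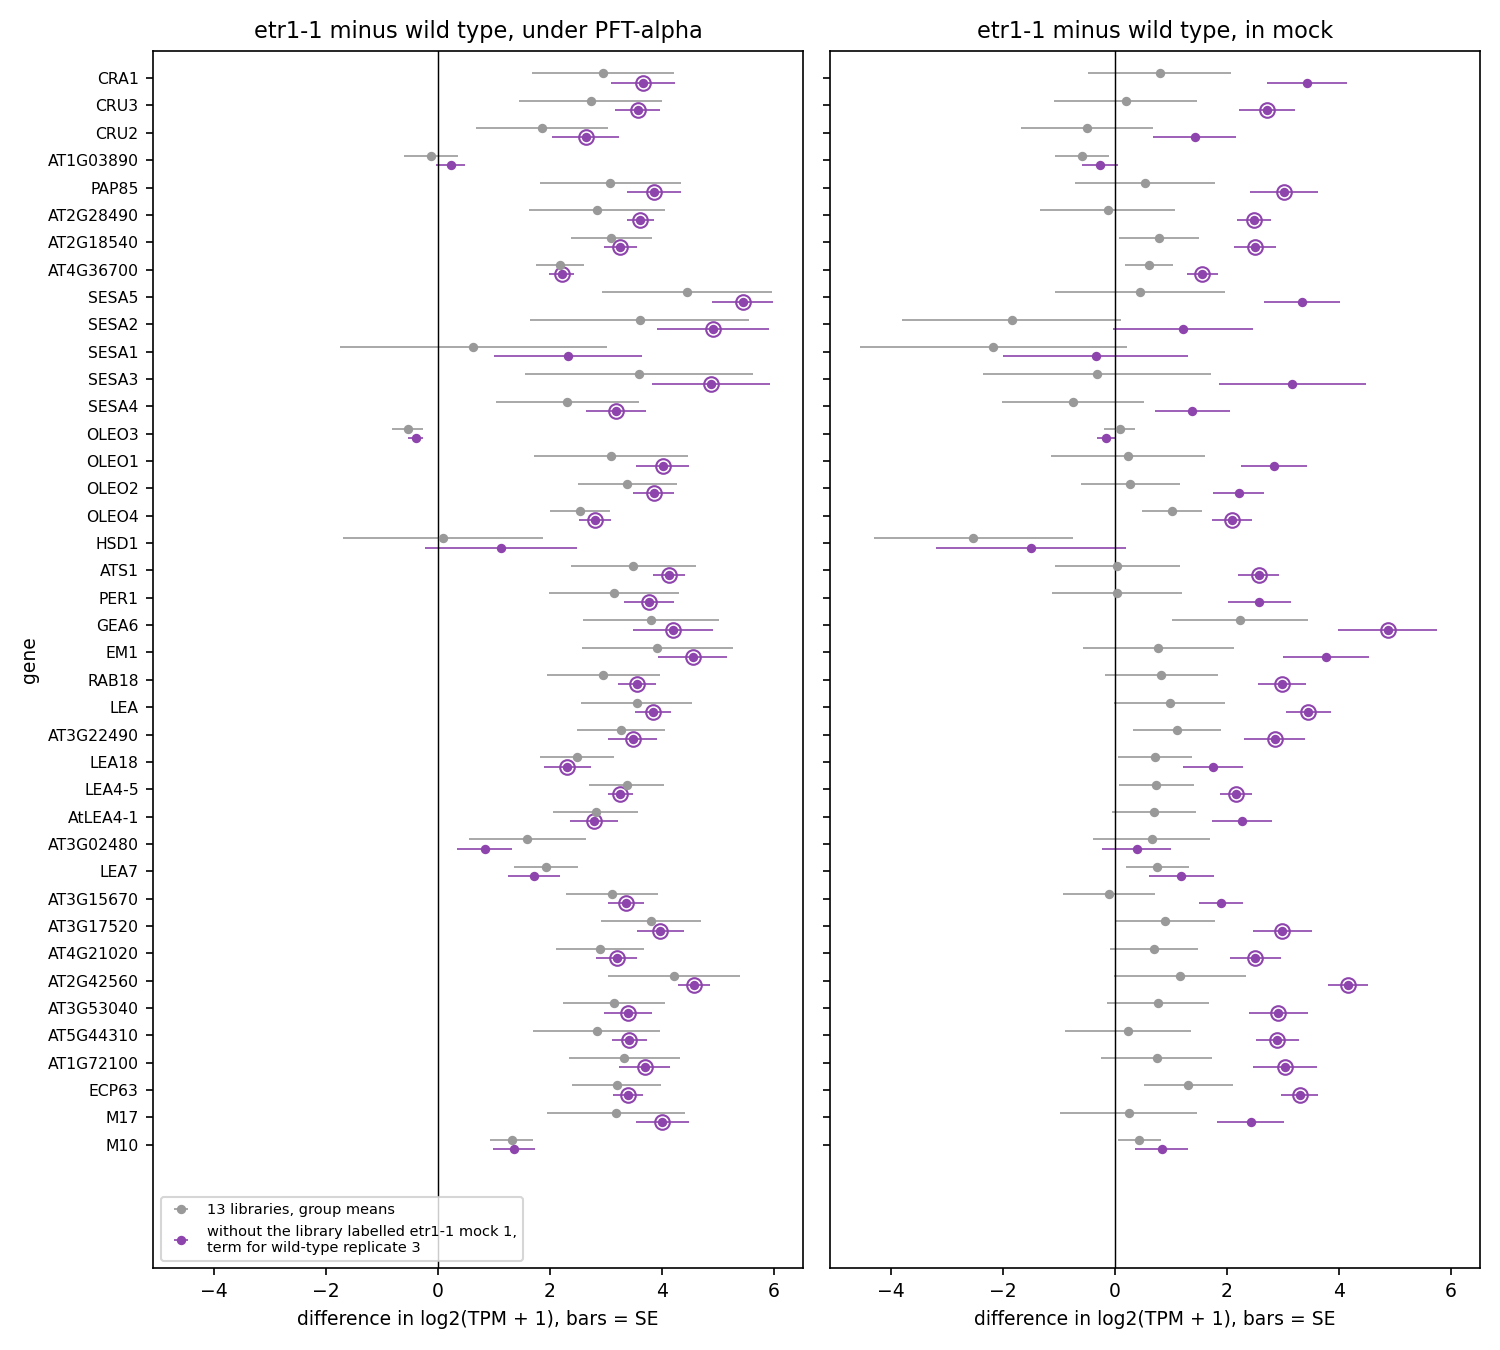
Difference in log2(TPM + 1) between etr1-1 and wild type for each member (points, with bars of 1 SE), under PFT-alpha and in mock, from all 13 libraries in grey and from the reduced fit in purple, with a ring where limma's adjusted p is under 0.05. Under PFT-alpha 33 members are ringed to the right of 0, and OLEO3 lies left of 0 without a ring.

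In mock, the same genotype comparison depended on a single library. With all libraries the median difference was 0.76 for LEA transcripts (19 of 20 above 0) and 0.09 for storage transcripts (11 of 19 above 0), against 0.02 for all tested genes, and without wild-type mock replicate 1 the storage median was -0.22. SESA1 alone did not overlap, lower in etr1-1 like 4.31% of all tested genes, and no member was higher without overlap, against 7.12%. By limma no member was called, 0 members had an unadjusted p under 0.05, and 0.0284% of all tested genes were called. Between the etr1-1 mock libraries themselves, mock 2 exceeded mock 1 by a median factor of 16.0 over LEA transcripts (1.67 to 144) and 10.7 over storage transcripts.

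Without the library labelled etr1-1 mock 1, in the reduced fit, the median differences in mock were 2.89 for LEA and 2.21 for storage transcripts, and 19 members rose, 12 of LEA and 7 of storage genes. In that fit 0.76% of all tested genes were called higher. With wild-type replicate 3 left out as well, 21 members were called, where 0.781% of all tested genes were called higher. GEA6 rose by 4.88 (SE 0.89, adjusted p = 0.0311, limma), AT2G21490 by 3.46 (SE 0.40, adjusted p = 0.00543), RAB18 by 2.99 (SE 0.42, adjusted p = 0.0118) and LEA4-5 by 2.17 (SE 0.28, adjusted p = 0.00891). Among storage genes CRU3 rose by 2.72 (SE 0.50, adjusted p = 0.032), AT2G28490 by 2.49 (SE 0.30, adjusted p = 0.00632) and ATS1 by 2.57 (SE 0.36, adjusted p = 0.0118). Leaving out mock 2 in place of mock 1, with no term for replicate 3, gave medians of -0.85 for LEA and -1.44 for storage transcripts, so the direction turns on which library stands for etr1-1 in mock. ERS2 and RTE1 differ between the same 2 libraries, as given above, and their part in this result was not tested. The cupin gene AT4G36700, among the members called higher in mock, passed the filter only with the etr1-1 libraries.

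Within etr1-1, PFT-alpha against mock gave medians of 1.89 for storage and 1.89 for LEA transcripts with all libraries. Both PFT-alpha libraries exceeded both mock libraries for 11 storage transcripts, 9 LEA transcripts and PER1, as they did for 13.4% of all tested genes, and no member was lower without overlap, against 24.5%. By limma no member was called (0.0142% of all tested genes were called). Without the library labelled etr1-1 mock 1 the medians were 0.23 for storage and 0.10 for LEA transcripts, with no member called by limma (0.0143% of all tested genes) and 0 at an unadjusted p under 0.05. CRA1 then differed by 0.09 (SE 0.74), RAB18 by 0.10 (SE 0.44) and EM1 by 0.02 (SE 0.80). With mock 2 left out instead, the medians were 3.36 and 3.58 and 11 members were called, where 0.613% of all tested genes were called higher.

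The interaction asks whether PFT-alpha acted differently in etr1-1 and wild type. Its median was 2.62 for storage and 2.28 for LEA transcripts with all libraries, with no member called by limma and 0.00474% of all tested genes called. In the reduced fit, where etr1-1 in mock rests on 1 library, the medians were 1.18 and 0.54. No member was called there by adjusted p (0.0095% of all tested genes). With mock 2 left out 8 members were called, where 0.423% of all tested genes were called higher. The interaction is built from the same libraries as the comparisons before it, so its values are not independent of theirs. AT4G36700, which passed the filter only with the etr1-1 libraries, is among its called members. The same gene was called for PFT-alpha within etr1-1 with mock 2 left out.

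In wild type, PFT-alpha against mock gave lower values for most members, and none was called. The median difference was -0.93 for storage transcripts (18 of 19 below 0) and -0.52 for LEA transcripts (18 of 20 below 0), against -0.02 for all tested genes. By limma with all libraries no member was called, 0 had an unadjusted p under 0.05, and 0.0% of all tested genes were called. With the replicate as a block in wild type alone, no member was called. SESA4 had the lowest p there, with a difference of -1.73 (SE 0.30, adjusted p = 0.518 by limma). In the reduced fit no member was called either. LEA4-5 and LEA7 were lower in all 3 PFT-alpha libraries than in all 3 mock libraries, as were 2.57% of all tested genes, and none was higher without overlap, against 1.08%. By replicate number, storage transcripts had median differences of -1.01, -1.40 and -0.31, and LEA transcripts of -0.86, -0.75 and 0.20, so that replicate 3 differed from the others in size and, for LEA, in sign. SESA2 had the largest estimate of the named genes, at -3.33 (SE 1.75, not called by limma). It rested on 9.0 and 9.2 estimated fragments in PFT-alpha replicates 1 and 2.

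A fit chosen after the data were seen left out the replicate 3 libraries and the library labelled etr1-1 mock 1. There PFT-alpha against mock rested on wild-type replicates 1 and 2. The median difference was -1.18 for storage and -0.88 for LEA transcripts, against 0.003 for all tested genes. In that fit SESA5 alone was called, at -2.64 (SE 0.20, adjusted p = 0.0116, limma), where 0.0241% of all tested genes were called lower. GEA6 was an exception to the general direction, with 12.3, 20.6 and 44.9 TPM under PFT-alpha against 8.65, 14.7 and 7.23 TPM in mock, a difference of 1.14 (SE 1.09) that was not called.

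ACC against mock in wild type, the response to the ethylene precursor, was of similar size. Its median difference was -0.77 for storage transcripts (16 of 19 below 0) and -0.42 for LEA transcripts (15 of 20 below 0), with the median of all tested genes near 0. By replicate number the medians were -0.66, -1.43 and 0.05 for storage and -0.56, -1.01 and 0.08 for LEA transcripts. Replicate 3 thus showed no fall, with 10 of 19 storage and 13 of 20 LEA transcripts higher under ACC. OLEO3 was higher in every ACC library than in every mock library (4.54% of all tested genes), and AT3G15670 was lower (7.78%). By limma no member was called with all libraries, OLEO3 alone had an unadjusted p under 0.05, and 0.00948% of all tested genes were called.

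With same-numbered wild-type libraries treated as matched across treatments, the fit of the 9 wild-type libraries with the replicate as a block was also read, and it called 3 members. OLEO3 rose under ACC by 0.60 (SE 0.12, adjusted p = 0.0293, limma), where 1.71% of all tested genes were called higher. AT2G28490 fell by 0.93 (SE 0.20, adjusted p = 0.0345) and SESA4 fell by 1.503 (SE 0.30, adjusted p = 0.0277), where 4.18% were called lower. SESA4 rested on 4.0 and 3.0 estimated fragments in ACC replicates 1 and 2. In the reduced fit OLEO3 (adjusted p = 0.00996) and AT2G28490 (adjusted p = 0.0217) were called and SESA4 was not (adjusted p = 0.0825), where 2.8% of all tested genes were called higher and 6.55% lower. With wild-type replicate 3 and the library labelled etr1-1 mock 1 left out, 8 members were called lower (AT2G18540, AT2G28490, SESA5, ATS1, ECP63, AT2G42560, M17 and M10), among 6.24% of all tested genes, and none higher (OLEO3 at an adjusted p of 0.0542 by limma). OLEO3 was thus the only member that rose under ACC in the block fit and in the reduced fit, and the library labelled etr1-1 mock 1, at 96.8 TPM, lay within the ACC range of 86.4 to 144 TPM for this gene.

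PFT-alpha against ACC in wild type separated no member, while 4.89% of all tested genes were higher and 4.35% lower without overlap. The medians were -0.25 for storage and -0.04 for LEA transcripts, against -0.01 for all tested genes. Leaving out PFT-alpha replicate 1 turned them to 0.09 and 0.39, leaving out ACC replicate 3 to 0.44 and 0.40, and leaving out PFT-alpha replicate 2 turned the storage median to 0.21. No member was called by limma, 0 had an unadjusted p under 0.05, and 0.0% of all tested genes were called. In the reduced fit none was called either. With wild-type replicate 3 and the library labelled etr1-1 mock 1 left out, SESA5, AT3G15670, LEA7 and AT3G02480 were called lower, among 1.84% of all tested genes. Both treatments share the same mock libraries, so their differences from mock are not independent of each other.

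Within wild type, median differences of storage transcripts were larger between replicate 3 and the other replicates than between treatments. For LEA transcripts this held under PFT-alpha and ACC but not in mock. On the log2(TPM + 1) scale, replicate 3 exceeded the mean of replicates 1 and 2 by a median of 1.65 in mock, 2.67 under PFT-alpha and 2.81 under ACC over the storage transcripts. For LEA transcripts the same medians were -0.02, 1.14 and 1.06. Replicate 3 was the highest library of all 3 wild-type groups for 16 of 19 storage transcripts (84.2%) and 8 of 20 LEA transcripts, against 20.1% of all tested genes. The albumin SESA1 differed most under PFT-alpha, by 6.45, and AT3G02480 was lower in replicate 3 by 2.69 in mock, 0.90 under PFT-alpha and 3.28 under ACC.

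**Figure D5:**
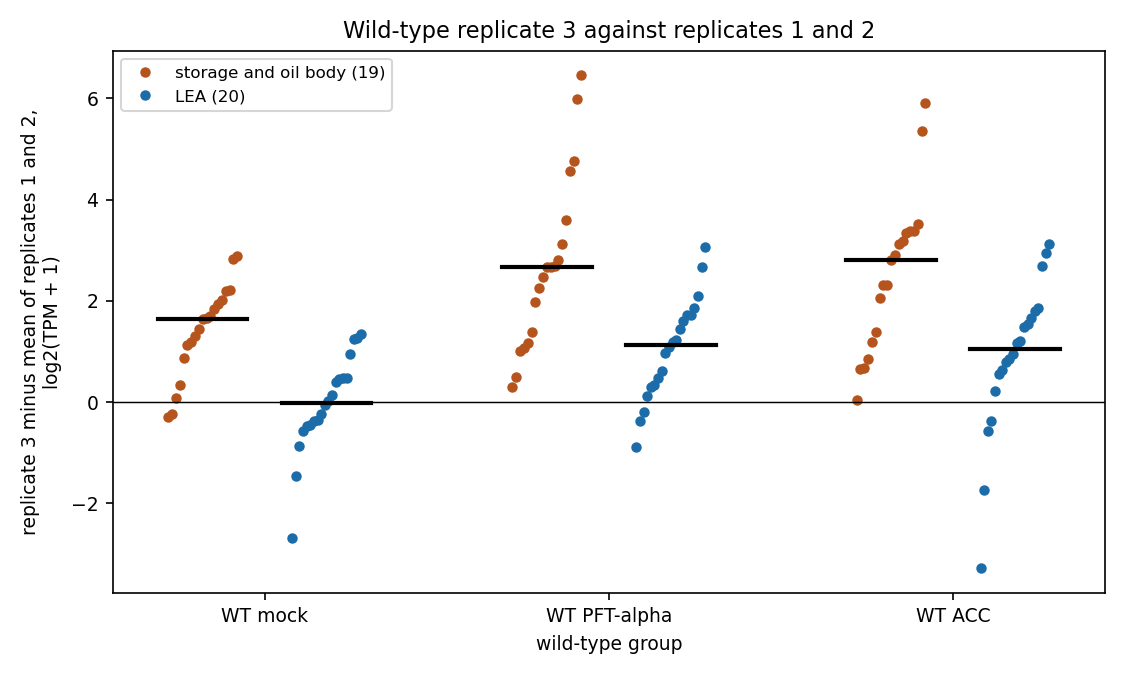
Difference in log2(TPM + 1) between wild-type replicate 3 and the mean of replicates 1 and 2 in each treatment, with 1 point per gene and a line at the median. Storage and oil body medians are 1.65, 2.67 and 2.81 and LEA medians -0.02, 1.14 and 1.06 in mock, PFT-alpha and ACC.

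Other transcripts also differed in replicate 3. The 19 genes of the light-harvesting antenna and Rubisco summed to 60122, 73617 and 63315 TPM in the wild-type replicate 3 libraries, against 27025 to 36894 TPM in wild-type replicates 1 and 2 and 32893 to 45923 TPM in etr1-1. A list of 14 endosperm and seed coat genes, of which 6 passed the filter, summed to 259, 134 and 158 TPM in wild-type replicate 3, against 97.2 to 133 TPM in replicates 1 and 2 and 105 to 155 TPM in etr1-1. The endosperm gene EPR1 was at 188, 69.0 and 85.3 TPM in replicate 3, against 6.91 to 35.7 TPM in replicates 1 and 2. Without EPR1 the list ran the other way, at 71.5, 64.8 and 72.6 TPM in replicate 3 against 89.5 to 99.6 TPM in replicates 1 and 2, with MUM2 at 12.6, 18.2 and 14.6 TPM against 22.3 to 40.6 TPM. TT12 and FIS2 were at 0 in all 13 libraries and BAN was above 0 in a single library, at 0.04 TPM. The part of these transcripts in the storage result was not tested.

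The make-up of the storage sum also differed between libraries. Cruciferins made up 47.3 to 82.7% of it. Albumins took 25.5, 23.9 and 30.4% in wild-type mock, 5.61, 2.41 and 30.5% under PFT-alpha, 17.2, 8.47 and 19.3% under ACC, 14.7 and 18.8% in etr1-1 mock and 15.9 and 27.2% in etr1-1 under PFT-alpha. The lowest albumin shares were therefore those of wild-type PFT-alpha replicates 1 and 2 and ACC replicate 2. OLEO3 alone held 0.84 to 23.5% of the sum, most in wild-type ACC replicate 1 and least in etr1-1 under PFT-alpha.

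Across the 13 libraries the members largely moved together, as a description of libraries that differ in depth and in the way given above. The median Pearson r of a storage gene with the mean of the other storage genes was 0.92 (11 of 19 above 0.9), that of a LEA gene with the other LEA genes was 0.93 (15 of 20 above 0.9), and the means of both classes had an r of 0.80 (n = 13 libraries). OLEO3 (-0.19) and AT3G02480 (0.22) had the lowest values with their own classes, followed by HSD1 (0.39), AT1G03890 (0.57), LEA7 (0.61) and SESA1 (0.67). The cupins AT2G18540 and AT4G36700 were closer to the LEA mean (0.99 and 0.98) than to the storage mean (0.77 and 0.68). So were OLEO4 (0.919 against 0.788), CRA1 (0.892 against 0.838) and, by little, OLEO2 (0.935 against 0.916). In the other direction, M17 was closer to the storage mean (0.97) than to the LEA mean (0.85), as was RAB18 by little (0.928 against 0.919). PER1 had an r of 0.96 with the storage mean and 0.91 with the LEA mean.

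Regulators of seed genes and other seed genes were read in the same comparison, etr1-1 against wild type under PFT-alpha in the reduced fit. Of 16 seed regulators 11 were tested and 4 rose, of which HSFA9 passed the filter only with the etr1-1 libraries and so had to differ. ABI3, a master regulator of seed maturation, was at 1.58, 1.68 and 3.78 TPM in wild type and 8.49 and 7.68 TPM in etr1-1, a rise of 1.72 (adjusted p = 0.00044, limma). ABI5, the ABA-responsive factor of the seed, was at 6.98, 5.82 and 9.30 TPM and at 15.3 and 15.9 TPM, a rise of 1.22 (adjusted p = 0.00216). EEL, a bZIP factor of the seed, rose by 1.38. HSFA9, a seed heat-shock factor, was at or below 0.63 TPM in every other library and at 1.26 and 1.3 TPM in etr1-1 under PFT-alpha, whereas BZIP25 and BZIP53, the most abundant of the list, were at 77.0 to 101.4 TPM and 65.4 to 99.2 TPM in wild type and at 89.5 to 100.6 TPM and 84.9 to 85.2 TPM in etr1-1. LEC2 was at 0 in all libraries.

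Of 10 other seed genes 7 rose, with a median difference of 3.21 over the list. They include the oleosin AT3G01570 (3.36) and AT1G54870 (3.64), the highest of the list in level, and the seed tonoplast channel TIP3;1 (4.11). AT5G50700, the second HSD1 copy, is counted among the 7 but is as uncertain as the first, since reads cannot be told apart between the copies. Of 21 tested other LEA genes 7 rose and SAG21 fell by 0.66. COR15B, AT5G53270 and AT2G18340 among the 7 passed the filter only with the etr1-1 libraries. Of the other 18 genes 4 rose, with a median of 0.39. ERD14 and COR47, dehydrins of vegetative tissue, were at 950.0 to 3309.7 and 989.9 to 2537 TPM in wild type under PFT-alpha and at 3198 to 4015 and 2558 to 3272 TPM in etr1-1. Among ABA-response genes 8 of 15 rose, of which HAI3 passed the filter only with the etr1-1 libraries, and the median of the other 14 was 0.82. The highest in level, LTI78 and KIN2, were at 308 to 663 and 88.8 to 184 TPM in wild type and at 946 to 1349 and 318 to 378 TPM in etr1-1. Of 7 tested ABA metabolism genes ABA1 alone rose (median 0.13 without CYP707A2, which passed the filter only with the etr1-1 libraries), at 17.7 to 21.0 TPM in wild type and 28.4 to 30.9 TPM in etr1-1, while CYP707A3, which breaks ABA down, was at 14.8 to 41.7 and 34.0 to 34.9 TPM.

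Genes that use the reserves showed smaller differences. Of 18 tested, MLS (malate synthase) alone rose, with a median of 0.10, and ICL (isocitrate lyase) was at 749, 694 and 951 TPM in wild type and 663 and 762 TPM in etr1-1 under PFT-alpha. PCK1, of gluconeogenesis, was at 334 to 483 TPM and 361 to 398 TPM. Among 9 tested repressors of seed genes AFP1 rose (median -0.02), and PKL, a chromatin remodeller that keeps seed genes silent after germination, was at 23.5 to 28.8 TPM in wild type and 29.3 and 29.6 TPM in etr1-1, and EMF2 at 27.0 to 28.6 and 25.6 to 26.7 TPM. Of 6 tested endosperm and seed coat genes EPR1 rose by 2.34 (median -0.22), while MUM4 was at 27.5 to 49.2 TPM in wild type and 35.9 to 37.0 TPM in etr1-1. EPR1 overlapped between the genotypes, with wild-type PFT-alpha replicate 3 above etr1-1 PFT-alpha replicate 1. Of the antenna and Rubisco genes, where CAB1 was at 7692 to 13769 and 8981 to 9995 TPM and RBCS1A at 5096 to 14758 and 4971 to 5982 TPM, 4 of 19 rose (median 0.27), against a median of -0.04 for all tested genes. With all 13 libraries limma called no gene of these lists in this comparison, and with the replicate block over them it called EEL (adjusted p = 0.0215) and the tonoplast channel BETA-TIP (adjusted p = 0.0143).

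OLEO1, OLEO2, RAB18, AT3G22490 and LEA7 overlap a gene on the other strand, and whether strand was used in counting is not stated, so their reads and those of the partner cannot be told apart. Fewer than 10 estimated fragments lay behind AT1G03890 in 9 libraries, AT3G22490 in 8, HSD1 in 5, SESA4 in 4 and SESA1 in 3, and differences between these low values were not detectable at this depth.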

How the data were processed

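The deposited table holds TPM for 33033 genes in 13 libraries, named so per the file headers. Its 5 columns of group means were left aside. The authors' tools, per the submitters' processing notes, were RSEM, StringTie, HISAT, HISAT2, fastp and DESeq2 with the TAIR10 build, and versions and roles are not given in the sources used here. The kit was stranded, per the labels' protocols, and use of strand in counting is not stated. Depth was estimated from steps of 1 fragment in low TPM values (82.0 to 87.6% within 0.15 of a step). Values were tested as log2(TPM + 1) where a gene had at least 1 TPM in at least 2 libraries (21091 genes).

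The test was limma 3.58.1 with a trend in R 4.3.3, all 13 libraries, group means and no block, two-sided, with Benjamini-Hochberg adjustment over all tested genes at 0.05. A run of this test on simulated data covered PFT-alpha against mock in wild type alone. The simulated libraries varied independently, without a replicate 3 shift, so that run cannot judge the reduced fit. Same-numbered wild-type libraries deviated together (r from 0.28 to 0.77 across genes in all 9 pairs), so numbers were taken to pair them. Replicates 1 and 2 correlated as much across numbers (0.29 to 0.54) as within them (0.28 to 0.55), and replicate 3 with the others at -0.64 to -0.34, so the pairing rests mainly on replicate 3. Alternatives were the replicate block, also in wild type alone, a pseudocount of 0.1, no filter, median-of-ratios scaling, each library left out, wild-type replicate 3 left out, the reduced fit and a fit added after the data were seen. Members and lists were chosen with earlier results of these data known. Members named with values in every library are the 2 highest in mean TPM per role, those called with or without the block, PER1 and RAB18. From each list the 2 genes highest in mean TPM are given. Windows and motifs were read with Python 3.11.15, numpy 2.4.6 and pandas 2.3.3, and figures were drawn with matplotlib 3.10.9.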

Additional observations from a re-analysis of the deposited data

How the results depend on the processing

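No member was called in any of the 7 comparisons with all 13 libraries, nor with the replicate block over them, a pseudocount of 0.1, no filter, median-of-ratios scaling or wild-type replicate 3 left out, and no median changed sign under these. With single libraries left out, medians changed sign in etr1-1 against wild type in mock (without etr1-1 mock replicate 2, and for storage without wild-type mock replicate 1) and in PFT-alpha against ACC, where they ranged from -1.12 to 0.44 (storage) and from -0.45 to 0.40 (LEA). With the replicate block in wild type alone, ACC against mock called 3 members, and 0 were called for the other wild-type comparisons; over all 13 libraries the block gave medians of 3.57 and 3.41 (storage, LEA) for etr1-1 against wild type under PFT-alpha.

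In the reduced fit the members called were 2 for ACC against mock, 19 for etr1-1 against wild type in mock and 33 under PFT-alpha. Its medians (storage, LEA) were 2.21 and 2.89 for the genotype in mock, 0.23 and 0.10 for PFT-alpha in etr1-1, and 1.18 and 0.54 for the interaction. With wild-type replicate 3 and etr1-1 mock 1 left out, chosen after the data were seen, calls were 1 for PFT-alpha against mock, 8 for ACC against mock and 4 for PFT-alpha against ACC in wild type, and 21 and 35 for the genotype in mock and under PFT-alpha. Its medians were 2.04 and 2.62 for the genotype in mock, 0.23 and 0.10 for PFT-alpha in etr1-1, and 0.98 (LEA) for the interaction.

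Leaving out each library in turn gave medians (storage, LEA) from -1.44 to 1.74 and from -0.85 to 2.36 for the genotype in mock, from 0.23 to 3.36 and from 0.10 to 3.58 for PFT-alpha in etr1-1, and from 1.18 to 4.22 and from 0.54 to 3.99 for the interaction. Calls ranged from 0 to 11 for the genotype under PFT-alpha, 0 to 11 for PFT-alpha in etr1-1 and 0 to 8 for the interaction. Each extreme of the medians and each highest number of calls came from leaving out an etr1-1 mock library. With 2 libraries in each etr1-1 group and 1 of them against its label, etr1-1 in mock rests on a single library, and depth limits the 5 members with fewer than 10 fragments in 3 or more libraries.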

Other observations

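Outside the members, the genes whose log2(TPM + 1) ran closest to the mean of the storage transcripts over the 13 libraries were AT4G11310, annotated as a papain-family cysteine protease (r = 0.989), the nitrile specifier gene NSP2 (0.984) and the glycine-rich protein gene AT2G05580 (0.981). NSP2, whose product acts on the breakdown of glucosinolates, was at 9.44, 15.9 and 46.6 TPM in wild-type mock, 1.77, 1.25 and 38.7 TPM under PFT-alpha, 7.72, 3.62 and 79.4 TPM under ACC, 3.72 and 66.7 TPM in etr1-1 mock and 62.6 and 99.0 TPM in etr1-1 under PFT-alpha. Wild-type replicate 3 and 3 of the 4 etr1-1 libraries were thus its high libraries. The others of the 10 closest were CYP71A26, LCR67, TIP3;1 (also in the list of other seed genes), AT5G59170, AT5G35660, AT1G05510 and BGLU19, the last at 0.944.

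Closest to the LEA mean were HVA22B (r = 0.996), AT2G21720, AOX2, AT5G53895, XERO1 (also in the list of other LEA genes), AT1G02700, AT1G27990, AT5G38780, AT3G03620 and CBSX4 (0.975). These values describe 13 libraries that differ in depth and in the ways given above, and carry no test.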
